A study of Mus musculus with 16 samples.

Results

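The IL-4 response of macrophages with Sirt3 K223R was set against that of wild-type macrophages, gene by gene, over all 16 of the 16 libraries. The members are the 9891 of 10920 protein-coding genes with a value of at least 1 in at least 4 libraries. The measure is the interaction: the IL-4 response in Sirt3 K223R cells (IL-4 minus untreated) minus the IL-4 response in wild-type cells, each as a difference of mean log2(FPKM + 1). FPKM is fragments scaled by transcript length and by the size of the library, a level that can be set side by side between genes. A positive interaction means that the cells with K223R ended higher relative to their own untreated state than wild-type cells did. A gene was called where the adjusted p from limma's moderated test, corrected over the 9891 genes by the Benjamini-Hochberg method, was under 0.05, and every adjusted p below is of that kind.

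RNA was sequenced from macrophages grown out of the bone marrow of C57BL/6 mice aged 8 weeks. All 4 groups received M-CSF, the growth factor that turns marrow cells into macrophages, at 20 ng/ml for 7 days. Untreated wild-type, untreated Sirt3 K223R, IL-4 wild-type and IL-4 Sirt3 K223R cells had 4 libraries each, and the IL-4 groups were given 20 ng/ml for 24 hours. Separate mice for the replicates, homozygosity and the tissues that carry K223R are not stated in the labels, so p-values measure the spread between these libraries, which may be technical. A cytokine added to a dish of marrow-derived cells models alternative (M2) activation outside a tissue.

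IL-4 binds a receptor whose kinases activate the transcription factor STAT6, and STAT6 switches macrophages to the alternative state, known in mouse for the chitinase-like proteins Chil3 and Chil4, the resistin-like protein Retnla, arginase Arg1 and the mannose receptor Mrc1. Sirt3 is a deacetylase of the mitochondrial matrix that acts on enzymes of fatty acid oxidation, the tricarboxylic acid cycle and respiration. Lysine K223 of mouse Sirt3 is known as its site of attachment of SUMO, a small protein whose removal raises the deacetylase activity, and arginine in its place cannot carry SUMO.

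The codon that the genotype label points to is shown first, because it defines the groups. Which protein form its numbering follows is not given in the labels. Of 7 coding transcripts in GENCODE M21, 1 has a lysine at the position in the allele name counted from its first codon, Sirt3-205, and there the codon lies in exon 5 on the minus strand at chr7:140869594-140869596 (GRCm38). The capitals mark that lysine codon within its coding sequence, and the base change that makes arginine is not given in the labels.
Sirt3 codon K223: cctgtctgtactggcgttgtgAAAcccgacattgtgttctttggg
Sirt3 mRNA did not report the genotype. It stood at 1.24, 1.62, 1.57 and 1.47 FPKM in untreated and 1.36, 1.06, 1.63 and 1.39 in IL-4 wild-type cells. Untreated K223R cells had 1.47, 1.60, 1.73 and 1.43 FPKM and IL-4 K223R cells 1.42, 1.18, 1.36 and 1.32. All 4 groups overlapped, and the interaction was -0.07 (log2, SE 0.107, adjusted p = 0.810). A missense change need not alter the mRNA level, so this does not check the labels.

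Chil3 and Chil4, neighbours on chromosome 3 that encode chitinase-like proteins of alternatively activated mouse macrophages, were both among the genes with the largest interaction. Their upstream sequences are shown because these paralogs moved together, and that of Retnla because it had the largest IL-4 rise of all tested genes in both genotypes. The windows are from the RefSeq promoter table (GRCm38.p6) and end where the deposited gene model begins. Capitals mark TTC and GAA with 4 bases between them, the form of palindrome that STAT6 is known to prefer, or with 3 between them (TTCNNNGAA), the form shared by most STAT factors. Both patterns read the same on either strand, and neither can match inside the other at the same place.
Chil3, minus strand, chr3:106167565-106167814: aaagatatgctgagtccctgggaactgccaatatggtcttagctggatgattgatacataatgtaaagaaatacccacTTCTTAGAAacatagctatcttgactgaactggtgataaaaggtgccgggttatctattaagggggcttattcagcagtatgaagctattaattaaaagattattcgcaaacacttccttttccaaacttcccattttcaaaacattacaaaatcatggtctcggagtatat
Chil4, minus strand, chr3:106219508-106219729: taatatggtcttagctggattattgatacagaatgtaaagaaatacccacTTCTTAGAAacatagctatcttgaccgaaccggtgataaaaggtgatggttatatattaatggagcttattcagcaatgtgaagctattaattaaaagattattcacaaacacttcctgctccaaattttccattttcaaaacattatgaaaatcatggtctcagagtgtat
Retnla, plus strand, chr16:48842359-48842551: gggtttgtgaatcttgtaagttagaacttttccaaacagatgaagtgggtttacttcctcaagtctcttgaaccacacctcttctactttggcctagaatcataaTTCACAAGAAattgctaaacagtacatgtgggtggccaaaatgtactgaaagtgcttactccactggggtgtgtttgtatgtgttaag
The Chil3 and Chil4 windows were identical in 90.1% of aligned columns (201 columns) over the 222 bases next to the gene models. Both carried TTCTTAGAA starting 172 bases before the gene model, and Retnla carried TTCACAAGAA at 88 bases.

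The same letters were counted upstream of all genes. Of 7815 tested genes with a window in the table, 6.39% held the form with 4 bases between and 8.23% the form with 3, within 250 bases before to 50 after the start. Among genes with a called positive interaction the shares were 5.45% (3 of 55) and 7.27% (4 of 55). Among genes with a called negative interaction they were 4.67% (5 of 107) and 11.2% (12 of 107). A gene counted where any of its windows held the form. Among genes that rose by at least 1 (log2) in both genotypes the shares were 14.0% (15 of 107) and 10.3% (11 of 107). Counted by window instead of by gene, 6.95% and 8.30% of all 32851 windows of the table held them. A match describes letters only, and nothing about binding follows from its presence or absence.

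Most genes that IL-4 changed in wild type were also changed in K223R cells, and the interaction singled out a small set whose response differed in size or direction. Limma called 2575 genes for IL-4 in wild type (26.0% of those tested) and 4209 in K223R cells (42.6%), with 2145 called in both. Across genes the responses, which share no library, had a Pearson correlation of 0.867 as a description over 9891 genes. Their standard deviation over genes was 0.393 (log2) in wild type and 0.494 in K223R cells. The interaction was called for 212 genes (2.14%), 77 of them positive (0.778%) and 135 negative (1.36%), and 13 and 9 of these reached a size of 1. At an unadjusted p under 0.05 there were 1588 genes.

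The balance of positive and negative calls depended on scaling. The median interaction over all genes was -0.05, and median-ratio scaling of the libraries moved it to 0.00 and the calls to 132 positive and 91 negative. Quantile normalization gave 106 and 103, and a replicate block, which takes same-numbered libraries as pairs, gave 130 and 196. Single libraries also moved the count: it fell to 112 without untreated K223R replicate 2, 136 without untreated K223R replicate 3, 116 without IL-4 K223R replicate 3, 130 without wild-type IL-4 replicate 3 and 131 without wild-type IL-4 replicate 4. It rose to 344 without IL-4 K223R replicate 2, which stood apart from its group on the second principal component. Of the 212 genes, 94 were called whichever single library was left out, and 0 changed sign under any setting tried. The positive calls were all 77 called under median-ratio scaling too, and 91 of the 135 negative calls were.

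The interaction equals the genotype difference among IL-4 libraries minus that among untreated libraries, so each is given by its own values. The comparisons share libraries, and a difference among IL-4 libraries is partly built into a called interaction. Among IL-4 libraries the median genotype difference (K223R minus wild type) of the 77 genes with a called positive interaction was 0.47 (log2) and that of the 135 with a negative one -0.44. Of all tested genes, 5.0% were called higher and 10.0% lower in K223R cells there. Among untreated libraries limma called 0 of 9891 genes (0.00%) between genotypes, with 737 at an unadjusted p under 0.05, 4 called when libraries were weighted by quality, and 2, 2 and 1 called without untreated K223R replicate 2, untreated K223R replicate 3 and untreated wild-type replicate 1. The median untreated difference of the 77 and 135 genes was -0.00 and 0.04 (log2).

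**Figure D1:**
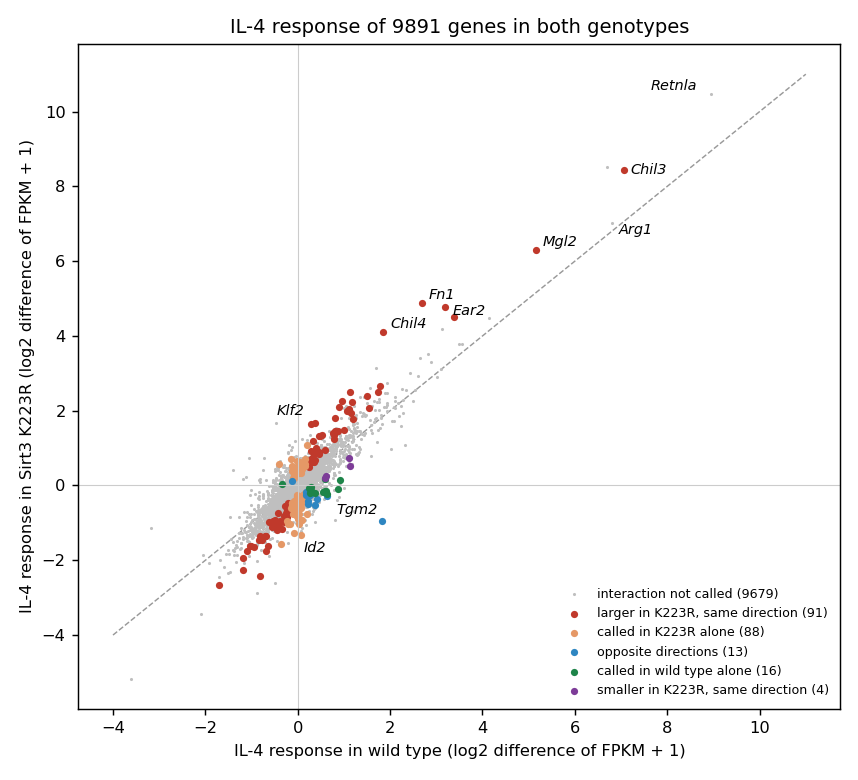
IL-4 response of each tested gene in wild type (horizontal) and in Sirt3 K223R (vertical), both as log2 differences of FPKM + 1, with equality as a dashed line. Coloured points are the 212 genes with a called interaction, of which 91 moved further in the same direction in K223R cells, 88 were called in K223R cells alone, 13 moved in opposite directions, 16 were called in wild type alone and 4 moved less far in K223R cells.

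By form, 91 genes had an amplified response, 88 a response called in K223R cells alone, and the rest another form. The IL-4 response was called in both genotypes, in the same direction and larger in K223R cells, for 91 genes: 47 rises (0.475% of tested genes), with a median response of 0.78 (log2) in wild type and 1.45 in K223R cells, and 44 falls (0.445%), with medians of -0.46 and -0.98. Of the 88 genes called in K223R cells alone, 28 (0.283%) had a positive and 60 (0.607%) a negative interaction. Smaller groups were 16 genes called in wild type alone, 1 positive (0.0101%) and 15 negative (0.152%), and 13 called in both with opposite directions, 1 positive (0.0101%) and 12 negative (0.121%). The last 4 (0.0404%) were called in both and smaller in K223R cells. Passing the threshold in one genotype alone is not the evidence for a difference here, since all 212 genes passed the test of the interaction itself. Without IL-4 K223R replicate 2 the amplified rises numbered 85 and the amplified falls 67. Median-ratio scaling gave 81 amplified rises, and weighting libraries by quality gave 109 rises and 89 falls. Amplified rises numbered 30 or 31 without untreated K223R replicate 4, IL-4 K223R replicate 3 or wild-type IL-4 replicate 4, and amplified falls 23 to 29 without untreated K223R replicate 2 or 3, IL-4 K223R replicate 3 or wild-type IL-4 replicate 3 or 4.

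The larger the response to IL-4, the more often it was larger in K223R cells. Genes were placed by their mean IL-4 response over both genotypes, a contrast whose estimation error is uncorrelated with that of the interaction in this balanced design. Of 188 genes with a called mean rise of at least 1 (log2), 148 (78.7%) had the larger rise in K223R cells, with a median interaction of 0.28, and 26 of these were called against 0 called in the other direction. Of 126 genes with a called mean fall of at least 1, 116 (92.1%) fell further in K223R cells, with a median of -0.37, and 15 against 0 were called.

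Smaller responses showed it less. With mean rises under 0.25, 60.4% of 603 genes rose more in K223R cells, and with mean falls under 0.25, 75.7% of 1435 fell more. Among the 5160 genes with no called mean response, 41.4% had an interaction above 0. Under median-ratio scaling, which recentres the libraries, the shares were 80.9% of rises and 90.8% of falls of at least 1, and 49.7% of genes with no called response had an interaction above 0. Without IL-4 K223R replicate 2 they were 82.0% and 93.0%, with 48 and 21 genes called, all larger in K223R cells. That design is not balanced, so the errors of the mean response and the interaction are correlated there. This tilts the shares toward larger responses in K223R cells.

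**Figure D2:**
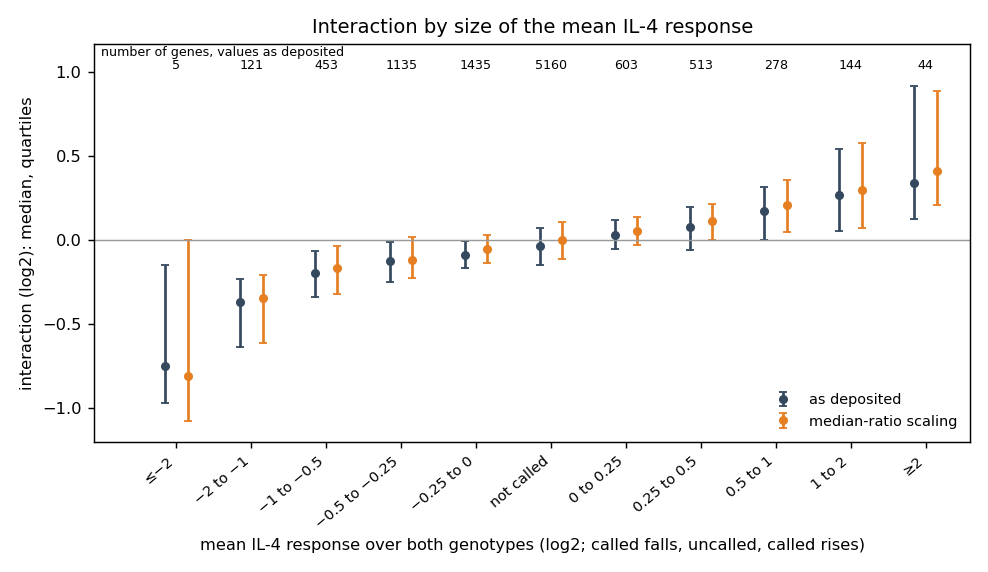
Median interaction (log2, points) and its quartiles (bars) for genes grouped by the size of their mean IL-4 response over both genotypes (horizontal axis, log2), as deposited and after median-ratio scaling. From left to right the medians go from negative for large falls to positive for large rises, at -0.37 for falls of 1 to 2 and 0.27 for rises of 1 to 2 as deposited. The leftmost bin holds 5 genes.

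The amplified rises were led by Chil4 and by fibronectin Fn1, an extracellular matrix protein. Chil4 (ENSMUSG00000063779.6, chromosome 3, 106201490 to 106219507) was at or below 0.00421 FPKM in all 8 untreated libraries. With IL-4 it reached 2.45, 2.43, 3.28 and 2.36 in wild type and 15.1, 23.1, 13.9 and 14.7 in K223R cells. The IL-4 groups were far apart, and the interaction was 2.27 (log2, SE 0.170, adjusted p = 1.08e-05). How reads of the close relatives Chil3 and Chil4 were divided is not stated, so each level is uncertain.

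Fn1 (chromosome 1, 71585520 to 71653200) rose from 0.527, 0.417, 0.735 and 0.506 FPKM to 5.72, 8.69, 12.8 and 9.84 in wild type. In K223R cells it rose from 0.651, 1.05, 0.947 and 0.527 to 63.3, 32.3, 74.7 and 47.1. Every IL-4 K223R library was above every IL-4 wild-type library, and the interaction was 2.20 (SE 0.325, adjusted p = 0.00436).

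Klf2, a zinc-finger transcription factor known to restrain inflammatory activation of myeloid cells, had a small rise in wild type and a large one in K223R cells. It went from 3.74, 3.06, 2.74 and 2.54 to 4.44, 3.70, 3.76 and 3.64 FPKM in wild type, and from 2.34, 2.32, 2.74 and 2.15 to 10.8, 9.03, 9.76 and 8.85 in K223R cells. The lowest IL-4 K223R library was above the highest of any other group. The interaction was 1.36 (SE 0.129, adjusted p = 0.000135) on responses of 0.29 and 1.64.

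Mgl2, a galactose-binding lectin of alternatively activated macrophages, was at most 0.177 FPKM without IL-4. It reached 33.9, 50.8, 31.1 and 36.5 in wild type and 96.6, 57.6, 100 and 80.2 in K223R cells, with no overlap (interaction 1.15, SE 0.226, adjusted p = 0.0185). With a pseudocount of 0.1 in place of 1, which gives more weight to the near-zero untreated values, its adjusted p was 0.148. Ephx1, an epoxide hydrolase of the endoplasmic reticulum, rose to 38.6, 48.5, 54.4 and 48.0 FPKM in wild type and to 115, 83.2, 124 and 105 in K223R cells from 25.4 to 32.8 untreated (interaction 1.01, SE 0.170, adjusted p = 0.00724).

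Chil3 and the eosinophil-type ribonuclease Ear2 had larger rises whose calls were lost when certain libraries were left out. Whichever library was left out, the interaction stayed at 1.21 to 1.56 for Chil3 and at 1.41 to 1.83 for Ear2. Chil3 rose from 9.64, 8.98, 18.9 and 17.6 FPKM to 2309, 1439, 2112 and 1770 in wild type. In K223R cells it rose from 20.0, 13.6, 27.2 and 14.5 to 6768, 6055, 6865 and 6845. The IL-4 groups were well apart, while the untreated groups, whose ratio also enters the interaction, overlapped. The interaction was 1.38 (SE 0.339, adjusted p = 0.0488), and it stayed called only without untreated wild-type replicate 1 or 2, wild-type IL-4 replicate 1, untreated K223R replicate 3 or IL-4 K223R replicate 2, with an adjusted p of up to 0.101 without any other library. It was also not called with a pseudocount of 0.1 (adjusted p = 0.0661), with no filter on low values (0.0503), after quantile normalization (0.123) or without the mean-variance trend (0.0518).

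Ear2 reached 97.0, 98.2, 171 and 116 FPKM in wild type and 701, 323, 770 and 538 in K223R cells (interaction 1.57, SE 0.338, adjusted p = 0.0271). Its adjusted p was up to 0.0561 without untreated K223R replicate 2 or 4, IL-4 K223R replicate 1 or 3, untreated wild-type replicate 3 or wild-type IL-4 replicate 4. Ear2 belongs to a family of near-identical ribonuclease genes, so its level is uncertain too.

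**Figure D3:**
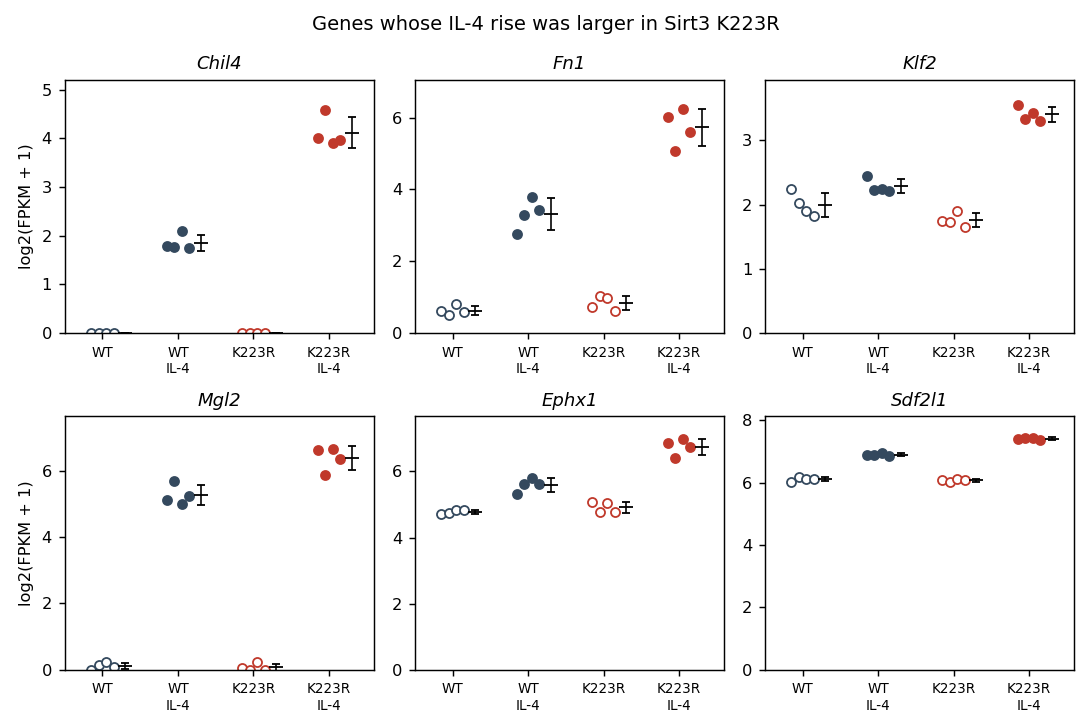
log2(FPKM + 1) of 6 genes with a larger IL-4 rise in Sirt3 K223R cells, 1 point per library (4 per group), untreated open and IL-4 filled, wild type (WT) dark and K223R red, with the mean and SD beside them. In each panel the 4 IL-4 K223R libraries lie above the 4 IL-4 wild-type libraries, and untreated libraries of both genotypes lie together.

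The list of IL-4 marker genes as a whole leaned upward, as genes with a large IL-4 rise did, with exceptions on both sides. Of its 31 tested members, 6 had a called positive interaction and 1, Tgm2, a negative one, and the median was 0.35 (log2) against -0.05 over all genes. Over all tested genes 0.778% had a called positive interaction and 1.36% a negative one, the background for the list counts here and below. All 31 members were called higher with IL-4 in wild type, and 24 had an interaction above 0. Of the 188 genes with a called mean rise of at least 1 (log2), which include list members such as Chil3, 78.7% lay above 0. Their median was 0.28, and 26 had a called positive interaction. The 6 list members called positive were Chil4, Fn1, Mgl2, Ear2, Chil3 and the eosinophil-attracting chemokine Ccl24, which is named outside the rule for named genes. Ccl24 had 1.59, 1.29, 1.30 and 1.32 FPKM in IL-4 wild-type and 5.46, 2.03, 6.25 and 3.50 in IL-4 K223R libraries (interaction 1.30, adjusted p = 0.0295). It stayed called only without untreated wild-type replicate 1 or 2, wild-type IL-4 replicate 1 or 2, untreated K223R replicate 1 or IL-4 K223R replicate 2 or 4, and was at an adjusted p of up to 0.0620 otherwise. The 6 became 3 without untreated K223R replicate 2 or 4, IL-4 K223R replicate 1 or 3, untreated wild-type replicate 3 or wild-type IL-4 replicate 4. They became 9 without IL-4 K223R replicate 2, 8 under median-ratio scaling and 9 under a replicate block, which also gave 2 negative calls.

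Arg1, Mrc1 and Retnla did not pass the test of the interaction. Arg1, the enzyme that splits arginine into ornithine and urea, reached 355, 354, 300 and 271 FPKM with IL-4 in wild type and 355, 361, 340 and 369 in K223R cells. The interaction was 0.22 (SE 0.366, adjusted p = 0.816), and the IL-4 libraries of the genotypes overlapped. Mrc1 reached 209, 242, 182 and 220 FPKM against 199, 198, 222 and 215 (interaction 0.05, SE 0.176, adjusted p = 0.927).

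Retnla was different: its IL-4 levels were 714, 1390, 1380 and 1317 FPKM in wild type and 6049, 3832, 5997 and 4429 in K223R cells, with no overlap. Untreated levels ranged from 1.06 to 2.26 in wild type and from 0.645 to 9.41 in K223R cells. That spread entered the interaction, which was 1.53 with an SE of 0.635 (adjusted p = 0.246).

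The amplified falls included receptors, enzymes and chemokines that wild-type cells also lowered. St3gal5, the sialyltransferase that makes the ganglioside GM3, fell from 18.8, 27.7, 22.3 and 27.9 FPKM to 8.85, 9.34, 10.7 and 10.7 in wild type. K223R cells fell from 25.1, 18.4, 21.8 and 23.1 to 5.02, 3.75, 3.25 and 3.34. Untreated groups overlapped and the IL-4 groups did not (interaction -1.07, SE 0.190, adjusted p = 0.0102).

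Hpgds, the haematopoietic prostaglandin D synthase, fell from 34.5, 33.7, 33.0 and 37.3 to 14.9, 13.8, 14.5 and 15.9 FPKM in wild type and from 34.5, 35.1, 38.5 and 36.4 to 8.93, 6.73, 9.28 and 9.89 in K223R cells (interaction -0.77, SE 0.122, adjusted p = 0.00559). Slc7a8, a transporter of neutral amino acids, was at 20.3, 21.1, 27.6 and 25.3 FPKM in IL-4 wild-type and 16.1, 12.2, 10.4 and 13 in IL-4 K223R libraries (interaction -1.07, SE 0.219, adjusted p = 0.0213). In both genes the IL-4 K223R libraries were the lowest of the 16.

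Axl and Havcr2, receptors for dying cells, were among the amplified falls. Of 17 tested genes of apoptotic cell clearance, 3 had a called negative interaction and 0 a positive one, where 1.36% of all tested genes had a negative call. The list median was -0.03 against -0.05 over all genes, and 7 of the 17 lay above 0. Another member, 1 of the 17, was called positive without IL-4 K223R replicate 2 and under a replicate block. Axl, a receptor that binds dying cells through the bridging protein Gas6, fell from 15.8, 14.2, 18 and 17.9 to 12.2, 12.2, 13.9 and 12.5 FPKM in wild type and from 17.2, 19.2, 23 and 20.3 to 8.09, 8.80, 9.10 and 7.30 in K223R cells (interaction -0.81, SE 0.130, adjusted p = 0.00559). Havcr2, which encodes Tim-3, was at 6.55, 4.36, 6.73 and 4.26 FPKM in IL-4 wild-type and 2.17, 2.98, 2.59 and 2.67 in IL-4 K223R libraries (interaction -0.97, SE 0.187, adjusted p = 0.0159). The third, the engulfment adaptor Elmo1 (-0.48, adjusted p = 0.0366), stayed called only without untreated wild-type replicate 3 or 4, wild-type IL-4 replicate 1, untreated K223R replicate 1 or IL-4 K223R replicate 1, 2 or 4, and had an adjusted p of up to 0.0763 otherwise.

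Antioxidant genes gave a pair of amplified falls among 32 tested. Gclc, the catalytic subunit of the enzyme that starts glutathione synthesis, had 12.3, 11.1, 12 and 13.6 FPKM in IL-4 wild-type and 8.15, 6.82, 8.20 and 8.27 in IL-4 K223R libraries from 13.5 to 15.4 untreated (interaction -0.59, SE 0.095, adjusted p = 0.00559). Taldo1, transaldolase of the pentose phosphate pathway, had 230, 230, 277 and 250 against 182, 188, 180 and 192 FPKM (interaction -0.48, SE 0.084, adjusted p = 0.00978). The list median was -0.10.

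Among genes called in K223R cells alone, 60 had a negative and 28 a positive interaction as deposited, and 39 and 47 under median-ratio scaling, so which direction was more common depended on the scaling. Id2, which holds back helix-loop-helix transcription factors, had 90.3, 110, 125 and 131 FPKM untreated and 93.8, 102, 150 and 123 with IL-4 in wild type. K223R cells fell from 126, 124, 131 and 125 to 70, 56.5, 57.2 and 63.6. The IL-4 K223R libraries were below all 12 others (interaction -1.06, SE 0.188, adjusted p = 0.0102).

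Fzd7, a receptor for Wnt proteins, fell to 12.5, 12.3, 10.5 and 13.2 FPKM in K223R cells against 19.0, 15.5, 22.2 and 20.4 in IL-4 wild-type cells (interaction -0.79, SE 0.142, adjusted p = 0.0102). Lrrc27 (-0.97, adjusted p = 0.00717) and Mapk1ip1 (-1.19, adjusted p = 0.0213) also fell in K223R cells alone. Plau, the urokinase that activates plasminogen, fell to 43.9, 60.1, 35.5 and 45.9 FPKM in K223R cells, where IL-4 wild-type libraries had 74.6, 91.5, 110 and 93.4 (interaction -1.21, adjusted p = 0.0279). The call of Plau ended without untreated K223R replicate 2 or 4, IL-4 K223R replicate 1 or 3, or wild-type IL-4 replicate 3 or 4, with an adjusted p of up to 0.0613.

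Upward and downward changes in K223R cells alone had similar median sizes of interaction, 0.44 and 0.46 (log2) as deposited. Of the 28 positive ones 0 reached a size of 1, and of the 60 negative ones 5 did. The linker histone gene Hist1h1c had 48.1, 58.8, 65.1 and 59.3 FPKM untreated and 45.2, 57.6, 55.5 and 49.7 with IL-4 in wild type, and rose from 63.8, 58.0, 61.6 and 61.7 to 93.6, 107, 100 and 100 in K223R cells. The IL-4 K223R libraries were the highest of the 16 (interaction 0.85, SE 0.122, adjusted p = 0.00408). Histone genes have close relatives and often lack a poly(A) tail, so their level depends on counting and on RNA selection.

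Usp18, which removes the ubiquitin-like protein ISG15 and damps interferon signalling, rose from 2.07, 2.26, 2.02 and 1.95 to 5.99, 4.96, 6.36 and 4.81 FPKM in K223R cells and had 1.84, 2.03, 2.44 and 2.89 in IL-4 wild-type cells (interaction 0.87, SE 0.167, adjusted p = 0.0159). Il3ra, the receptor chain for IL-3, had 14.6, 16, 16.6 and 16.4 FPKM in IL-4 wild-type and 21.8, 25.6, 23.2 and 19.9 in IL-4 K223R libraries (interaction 0.49, SE 0.094, adjusted p = 0.0159). Neither gene's IL-4 groups overlapped.

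Among 18 tested genes on the route from glutamine to alpha-ketoglutarate, 1 was called. Got1, the cytosolic aspartate aminotransferase, had 21.1, 19.4, 18.8 and 18.3 FPKM in IL-4 wild-type libraries. It rose from 18.9, 18.8, 18.8 and 18.5 to 23, 28.1, 26.0 and 25.8 in K223R cells (interaction 0.53, SE 0.094, adjusted p = 0.0103). The list median was -0.03.

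The reversed response with the smallest adjusted p was that of Tgm2, the tissue transglutaminase that cross-links proteins and is itself an IL-4 marker gene (chromosome 2, 158116402 to 158146436). In wild type it rose from 78.6, 83.8, 105 and 97.9 to 141, 137, 149 and 141 FPKM. In K223R cells it fell from 91.6, 99, 90.5 and 93.1 to 77.5, 88.6, 69.2 and 74.2. The untreated groups overlapped, IL-4 wild-type libraries were the highest of all and IL-4 K223R libraries lay below every untreated K223R library. The responses were 0.64 (adjusted p = 4.19e-05) and -0.28 (adjusted p = 0.0172), and the interaction was -0.92 (SE 0.121, adjusted p = 0.00257).

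Of the 13 reversed genes, 12 rose in wild type and fell in K223R cells. The largest in size was Il11ra2 (-2.78, adjusted p = 0.00860), whose level is uncertain because the files list a second gene model of that name and its copies are near-identical. Serpinb9, an inhibitor of granzyme B, had 8.14, 7.55, 7.99 and 7.82 FPKM in IL-4 wild-type and 4.50, 4.34, 5.14 and 5.6 in IL-4 K223R libraries from 6.04 to 7.32 untreated (interaction -0.62, SE 0.102, adjusted p = 0.00706). P4ha1, a catalytic subunit of the prolyl hydroxylase that matures collagen and uses alpha-ketoglutarate, had 44.2, 42.7, 43.9 and 42.9 against 30.4, 34.0, 32.3 and 32.4 FPKM (interaction -0.39, SE 0.071, adjusted p = 0.0109). It was the only gene called among 26 tested alpha-ketoglutarate-dependent dioxygenases.

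Nhp2, a protein of the particles that modify ribosomal RNA, rose to 33.5, 31.4, 34.4 and 30.0 FPKM in wild type and fell to 21.8, 22.2, 24.0 and 21.4 in K223R cells from 25.2 to 29.4 untreated (interaction -0.45, SE 0.074, adjusted p = 0.00717). Ccdc86, a nucleolar protein gene, followed the same course (-0.78, SE 0.158, adjusted p = 0.0205). The count of reversed genes was 13 in all and moved with single libraries: 6 without untreated K223R replicate 2 or IL-4 K223R replicate 3, 7 without IL-4 K223R replicate 1, and 8 without untreated K223R replicate 3 or wild-type IL-4 replicate 3. Median-ratio scaling also gave 8.

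Genes that responded in wild type alone, or more strongly there, were few. Gpr183, a receptor for oxysterols that guides immune cell migration, rose from 3.29, 2.94, 4.17 and 3.68 to 6.18, 5.38, 6.51 and 5.19 FPKM in wild type. In K223R cells it had 2.57, 2.80, 2.70 and 3.21 untreated and 2.59, 1.80, 2.51 and 2.99 with IL-4 (interaction -0.74, SE 0.153, adjusted p = 0.0225). Tmem206, which encodes an acid-activated chloride channel, rose to 54.3, 51.5, 57.2 and 54.9 FPKM in wild type and had 40.9, 45.6, 43.3 and 47.2 in IL-4 K223R cells (interaction -0.44, SE 0.086, adjusted p = 0.0174).

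Ccl2, the chemokine that draws monocytes, had 18.9, 18.1, 17.2 and 15 FPKM in IL-4 wild-type and 6.89, 5.20, 6.48 and 7.68 in IL-4 K223R libraries (interaction -0.95, SE 0.204, adjusted p = 0.0271). Its call ended without untreated K223R replicate 2 or 4, IL-4 K223R replicate 3, untreated wild-type replicate 1 or wild-type IL-4 replicate 3, with an adjusted p of up to 0.0585. The kinase gene Plk3 was the largest of the 4 damped rises by size of interaction, at 6.51, 5.28, 6.96 and 5.58 FPKM in IL-4 wild-type and 4.44, 4.56, 3.62 and 4.14 in IL-4 K223R libraries (-0.59, SE 0.122, adjusted p = 0.0225). Its call ended (adjusted p = 0.050) without untreated K223R replicate 2. The 4 damped genes numbered 0 without that library and from 1 to 6 without any other. The 16 genes called in wild type alone numbered from 5 to 10 without untreated K223R replicate 2, 3 or 4, IL-4 K223R replicate 3 or 4, untreated wild-type replicate 1, 3 or 4 or wild-type IL-4 replicate 3 or 4, with the lowest value without untreated K223R replicate 2.

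**Figure D4:**
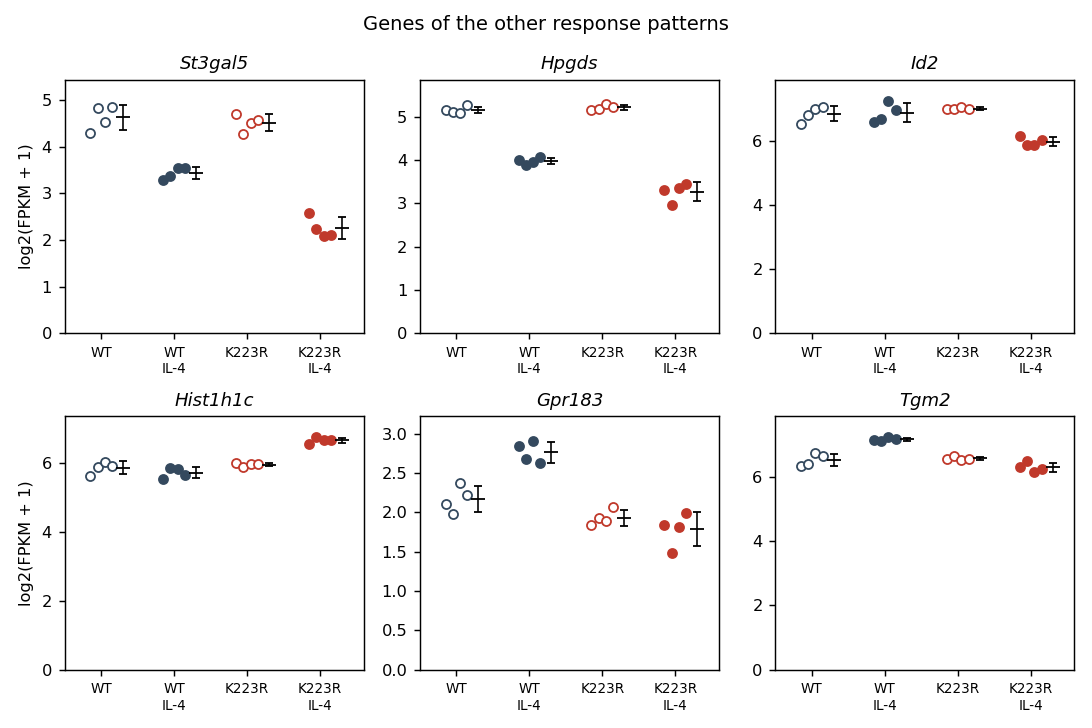
log2(FPKM + 1) per library, with mean and SD, of genes from the other response patterns: amplified falls (St3gal5, Hpgds), changes in Sirt3 K223R cells alone (Id2, Hist1h1c), a rise in wild type alone (Gpr183) and opposite changes (Tgm2). Symbols are 1 point per library (4 per group), untreated open and IL-4 filled, wild type (WT) dark and K223R red. Untreated libraries of both genotypes lie close together, and the IL-4 groups of the genotypes do not overlap in any of the 6 panels.

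Genes of protein folding in the endoplasmic reticulum leaned upward. Of 23 tested genes of the unfolded protein response and its chaperones, 3 had a called positive interaction and 0 a negative one, 19 lay above 0 and the median was 0.23. Sdf2l1, a partner of the chaperone BiP, rose from 63.8, 72.2, 69.3 and 68.5 to 118, 117, 123 and 114 FPKM in wild type. K223R cells rose from 67.4, 63.5, 68.0 and 67.0 to 170, 171, 174 and 163, far above the spread within groups (interaction 0.56, SE 0.063, adjusted p = 0.000549).

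The other two called genes, Pdia4, a disulfide isomerase (0.51, adjusted p = 0.0310), and Herpud1, a factor of protein disposal from the endoplasmic reticulum (0.82, adjusted p = 0.0343), were less firm. Pdia4 stayed called only without untreated wild-type replicate 1 or 2, wild-type IL-4 replicate 1 or 2, untreated K223R replicate 3 or IL-4 K223R replicate 1 or 2, with an adjusted p of up to 0.0688 otherwise. Herpud1 stayed called only without replicate 2 of IL-4 wild-type, untreated K223R or IL-4 K223R cells, with an adjusted p of up to 0.0731 otherwise. With both lost, the count of 3 was 1. Median-ratio scaling gave 5, with Dnajc3 and Edem1 added. Between IL-4 libraries 11 of the 23 genes were called higher in K223R than in wild type, against 5.0% of all tested genes.

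MHC class II genes had a list median of 0.93, the largest among the pathway lists, but none of 9 tested was called for the interaction, and all 9 lay above 0. Cd74, the invariant chain that escorts class II molecules, went from 35.5, 74.6, 84.7 and 64.4 to 128, 218, 238 and 247 FPKM in wild type and from 76.7, 50.5, 151 and 65.6 to 1012, 437, 907 and 590 in K223R cells. The IL-4 groups did not overlap, and the interaction was 1.44 with an SE of 0.502 (adjusted p = 0.164). Ciita, the master activator of these genes, named outside the rule, had 0.999, 1.51, 1.76 and 1.5 against 8.46, 2.74, 7.77 and 5.11 FPKM with IL-4 (interaction 1.05, SE 0.305, adjusted p = 0.0921). Between IL-4 libraries 8 of the 9 were called higher in K223R cells, against 5.0% of all tested genes. IL-4 K223R replicate 2 was the lowest of its group for Cd74 and for Ciita, and without it 2 of 9, Ciita and H2-DMb1, were called for the interaction. Weighting libraries by quality gave 3. A replicate block, which takes same-numbered libraries as pairs, gave 5, with Cd74 among them (limma adjusted p = 0.0119).

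Mitochondrially encoded mRNAs leaned the other way. Of 13 tested, 0 were called and 12 had a negative interaction, with a median of -0.48. Their summed level was 20780 to 24471 FPKM in untreated and 22133 to 25088 in IL-4 wild-type libraries, 18403 to 20675 in untreated K223R and 16227, 9816, 17629 and 17726 in IL-4 K223R libraries. All IL-4 K223R libraries were below all others, and replicate 2 was far the lowest. Without it the median was -0.25 and 1 gene was called lower. For mt-Co1 and mt-Co2, subunits of the terminal oxidase, the interaction was -0.17 (SE 0.170, adjusted p = 0.674) and -0.31 (SE 0.122, adjusted p = 0.221). Which libraries had poly(A) selection and which ribosomal RNA removal is not stated, and the part of that choice in mitochondrial mRNA levels was not tested.

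No gene passed the test of the interaction in 3 lists of mitochondrial metabolism, where Sirt3 acts, whose genes lie in the nucleus. The counts were 0 of 76 tested genes of nuclear-encoded oxidative phosphorylation (median 0.00), 0 of 28 of the tricarboxylic acid cycle (median 0.00) and 0 of 24 of fatty acid oxidation (median 0.04). Under median-ratio scaling 1 of the 28 was called higher, Aco1, which encodes the cytosolic aconitase (0.29, adjusted p = 0.0257). IL-4 raised 30 of the 76 in wild type and 39 in K223R cells, where 10.7% and 13.5% of all tested genes were called higher. Cox6b1 and Cox8a, the highest of them in level and both subunits of cytochrome oxidase, had interactions of 0.08 (SE 0.093, adjusted p = 0.732) and 0.09 (SE 0.108, adjusted p = 0.717). The 69 tested cytosolic ribosomal protein genes had 0 called for the interaction and a median of -0.07. Among IL-4 libraries 25 of them were called lower in K223R than in wild type, against 10.0% of all tested genes.

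Lipid storage, glycolysis and hypoxia genes were called downward, in small numbers, and most of these calls ended when certain libraries were left out. Of 23 tested genes of fatty acid binding, uptake and storage, 4 had a called negative interaction: Fabp7, a fatty acid binding protein (-1.61, adjusted p = 0.0372), Hilpda, an inhibitor of triglyceride breakdown (-0.82, adjusted p = 0.0257), Abhd5, an activator of it (-0.43, adjusted p = 0.0281), and the lipoprotein lipase Lpl (-0.44, adjusted p = 0.0494). The list median was -0.19. Hilpda had 17.1, 13.1, 9.65 and 12.5 FPKM in IL-4 wild-type and 7.23, 8.03, 5.73 and 7.70 in IL-4 K223R libraries. Its call ended without untreated K223R replicate 2 or 4 or IL-4 K223R replicate 3 (adjusted p up to 0.0533). Abhd5 lost its call without untreated K223R replicate 2, IL-4 K223R replicate 3, untreated wild-type replicate 2 or 3 or wild-type IL-4 replicate 3 or 4 (up to 0.0588). Fabp7 stayed called only without untreated wild-type replicate 4, wild-type IL-4 replicate 1 or 2 or IL-4 K223R replicate 1 or 2 (up to 0.0792 otherwise), and Lpl only without untreated wild-type replicate 2, wild-type IL-4 replicate 1 or IL-4 K223R replicate 2 (up to 0.103 otherwise). Median-ratio scaling ended the calls of Abhd5 (adjusted p = 0.0582) and Lpl (0.136), which left 2 of the 4, and quantile normalization that of Abhd5 (0.0544). Lpl was also not called with no filter on low values or without the mean-variance trend (up to 0.0548). No gene of the 4 was called without untreated K223R replicate 2 or without IL-4 K223R replicate 3.

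Of 21 tested glycolysis genes, 2 were called, the phosphofructokinase Pfkl (-0.44, adjusted p = 0.0295) and the glucose transporter Slc2a1 (-0.45, adjusted p = 0.0482), and the median was -0.24. Without IL-4 K223R replicate 2, 4 of the 21 were called lower, and a replicate block gave 3. Slc2a1 and P4ha1 were the called genes among 19 of the hypoxia response (median -0.11). Median-ratio scaling ended the calls of Pfkl (adjusted p = 0.0767) and Slc2a1 (adjusted p = 0.0895), and quantile normalization ended both (0.0778), as leaving out the mean-variance trend did for Slc2a1 (0.0539). Pfkl stayed called only without untreated wild-type replicate 2 or 3, wild-type IL-4 replicate 3 or 4, untreated K223R replicate 3 or IL-4 K223R replicate 1 or 2 (adjusted p up to 0.0653 otherwise), and Slc2a1 only without wild-type IL-4 replicate 2, untreated K223R replicate 3 or IL-4 K223R replicate 2 (up to 0.0977 otherwise).

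Inflammatory and interferon genes leaned downward, with calls in both directions. Of 23 tested cytokines and chemokines, 2 had a called negative interaction, Ccl2 and Ccl4, and 1 a positive one, Ccl9, with a median of -0.46. Of these 23, 6 had an interaction above 0, as did 10 of 38 interferon-stimulated genes. Between IL-4 libraries 10 of the 23 were called lower in K223R cells and 1 higher, against 10.0% and 5.0% of all tested genes. Ccl4, a chemokine of inflammatory macrophages, fell to 14.7, 15, 11.6 and 12.8 FPKM in wild type and to 4.07, 4.71, 3.14 and 5.29 in K223R cells (-0.97, SE 0.201, adjusted p = 0.0225). Its call ended without untreated K223R replicate 2 (adjusted p = 0.050) and with a pseudocount of 5 (0.0915). The chemokine Ccl9 rose to 398, 439, 350 and 358 against 523, 493, 589 and 537 FPKM (0.75, adjusted p = 0.0281), and its adjusted p was up to 0.0652 without untreated K223R replicate 2 or 4, IL-4 K223R replicate 3 or 4, untreated wild-type replicate 1 or wild-type IL-4 replicate 3 or 4. Of 38 tested interferon-stimulated genes, Usp18 was called upward, and Irf7 (-0.80) and Oas3 (-0.73), an amplifier and an effector of the antiviral response, were called downward (adjusted p = 0.0290 for both), with a median of -0.18. The calls of Irf7 and Oas3 ended (adjusted p up to 0.0653) without untreated K223R replicate 2 or 3, IL-4 K223R replicate 3 or 4, untreated wild-type replicate 1 or 2 or wild-type IL-4 replicate 4, and that of Oas3 also without wild-type IL-4 replicate 3.

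Matrix genes moved both ways among 20 tested, with 2 positive and 3 negative calls as deposited and 5 and 2 under median-ratio scaling, which added Adam19, Mmp9 and Mmp19. Besides Fn1, Timp2, an inhibitor of matrix metalloproteinases, rose to 153, 165, 172 and 151 FPKM in wild type and to 244, 247, 249 and 224 in K223R cells (0.48, SE 0.085, adjusted p = 0.00978). Called negative interactions were those of Plau, of Sparc, a matrix glycoprotein at no more than 1.59 FPKM (-0.52, adjusted p = 0.0205, and 0.0631 under quantile normalization), and of Emilin2, an elastic fibre protein (-0.36, adjusted p = 0.0205, and 0.0611 under median-ratio scaling). Among 39 lysosomal genes 1 was called, the beta-galactosidase Glb1, at 54.7, 58.6, 60.5 and 58.5 against 82.3, 80.0, 79.2 and 84.7 FPKM with IL-4 (0.44, SE 0.067, adjusted p = 0.00544).

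The IL-4 receptor system had few calls. Of 21 tested genes of IL-4 receptor and STAT6 signalling, 1 was called, Il13ra1, the chain that pairs with Il4ra to form the receptor shared with IL-13. It fell to 2.00, 1.77, 2.36 and 2.62 FPKM in wild type and to 1.45, 1.02, 1.34 and 1.42 in K223R cells (interaction -0.63, SE 0.132, adjusted p = 0.0240). Its adjusted p was up to 0.0540 without untreated K223R replicate 2 or 3 or wild-type IL-4 replicate 3. The list median was 0.07.

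**Figure D5:**
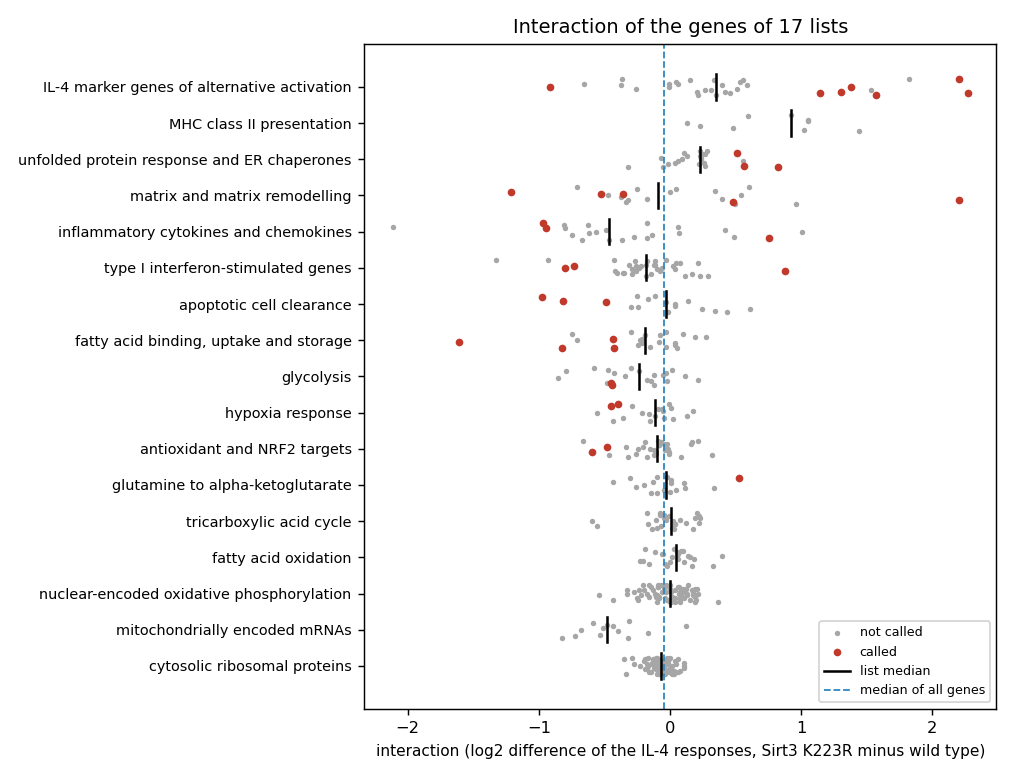
Interaction (log2) of each tested gene in 17 lists, called genes red and the others grey, with each list's median as a black bar and the median of all genes (-0.05) dashed. The IL-4 marker, MHC class II and folding lists have medians to the right of the dashed line and the mitochondrially encoded and inflammatory lists to the left, while oxidative phosphorylation is centred near 0.

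Markers of cell types were summed to see what moved beside these results. Macrophage markers summed to 12923 to 14537 FPKM in IL-4 wild-type and 13281 to 15182 in IL-4 K223R libraries, which overlapped. The 15 listed markers had 16 gene models, of which 15 were tested and Marco was below the filter. Of the 15 tested models 1, the Fc receptor Fcgr1 (-0.70, adjusted p = 0.0372), was called lower. It stayed called only without untreated wild-type replicate 2, wild-type IL-4 replicate 1 or IL-4 K223R replicate 1 or 2, with an adjusted p of up to 0.0779 otherwise, and under median-ratio scaling (0.0551) 0 of the 15 were called. The 8 of 16 neutrophil markers found summed to 99 to 150 FPKM in IL-4 wild-type and 81.0 to 110 in IL-4 K223R libraries, from 125 to 208 and 152 to 194 untreated, and their part in the results was not tested. The monocyte list, with sums of 1450 to 2317 and 6089 to 6942 FPKM with IL-4, is carried by Chil3 and is no separate measure. The erythroid and megakaryocyte list is carried by Pf4, which summed with Ppbp to 93.4 to 238 FPKM in IL-4 wild-type and 249 to 324 in IL-4 K223R libraries, with no overlap, from 44.5 to 160 and 102 to 181 untreated. None of that list was called for the interaction, and its part in the results was not tested. Eosinophil and dendritic markers found here, 4 of 8 and 1 of 10 listed, summed to at most 19.1 and 13.1 FPKM in any library. Stromal, T and NK cell and B cell markers found here, 4 of 11, 1 of 11 and 1 of 7, summed to at most 6.37, 4.23 and 2.07 FPKM in any library. Of 9 listed mast cell and basophil markers 0 were found. With so few markers found, low sums do not show that such cells were absent. In these bulk cultures a change in the share of cells of a kind and a change in RNA per cell cannot be told apart.

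Per library the values summed to between 288143 and 306581 FPKM with a median gene at 5.37 to 6.18, and sequencing depth is unknown. Only the tables of the K223R libraries carry a column of gene types, so processing may have differed between genotypes. A factor that multiplies a gene's value alike in all libraries of a genotype cancels from the interaction on the log scale, apart from the pseudocount. A difference in how reads of close relatives were divided need not cancel, and its part was not tested.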

How the data were processed

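Poly(A) mRNA, or alternatively RNA depleted of ribosomal RNA, was made into strand-specific libraries and read from both ends on an Illumina HiSeq instrument, per the labels' protocols. The selection used for each library is not stated. Aligner, counter and build: not given in the sources used here. Deposited by the authors was 1 value per gene and library for 10920 protein-coding genes, here read as FPKM. The files name no unit, and TPM of a larger gene set would look alike. The values are not whole multiples of a read, so the depth is unknown and no interval from counting applies. Of the 10920 gene IDs, 9522 were in GENCODE M21, all with the same coordinates (GRCm38).

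From these values log2(FPKM + 1) was fitted over all 16 libraries and 4 groups with limma 3.58.1 (R 4.3.3), with a mean-variance trend, for genes with a value of at least 1 in at least 4 libraries. Tables and figures were made with Python 3.11.15 and pandas 2.3.3. The fit was tested on simulated data. The 6 contrasts were IL-4 in each genotype and on average, genotype without and with IL-4, and the interaction. Alternatives were other pseudocounts, filters, scalings, weights and replicate blocks, and leaving out each library.

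The members, the 48 gene lists and the tests were chosen with earlier results of these data known. Named genes were Sirt3, Arg1, Chil3, Retnla and Mrc1; for each response pattern and direction, up to 8 called genes with the largest interaction and a group mean of at least 5; and for each list up to 4 called genes by adjusted p, or the 2 of highest mean if none was called. Unnamed gene models were left out, as were some near-identical copies, and not every gene the rule names is described. Ccl24, Ciita, Il11ra2, Nop56, Nop58, Nolc1, Gnl3, Dkc1, Ddx21, Fgr, Aco1, Adam19, Dnajc3, Edem1, H2-DMb1, Mmp9 and Mmp19 lie outside the rule and were chosen after their values were seen.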

Additional observations from a re-analysis of the deposited data

Results flagged for a closer look

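A single library stood far from the other 3 of its group in 25 of 308 groups of values checked, where chance alone picks out about 1 in 20. IL-4 K223R replicate 2 was the library picked out most often: in FPKM it had Chil3 at 6055, Chil4 at 23.1, Gclc at 6.82 and mt-Co1 at 2937. On the principal components of the tested genes it was at 17.7 on the second component, where the rest of its group lay between 3.79 and 6.04, and its median correlation with its group was 0.980 against at least 0.990. Its part in the interaction was measured by leaving it out, which raised the number of calls from 212 to 344. IL-4 wild-type replicate 1 stood apart with Retnla at 714, Ccl24 at 1.59, Klf2 at 4.44, Mapk1ip1 at 7.43 and mt-Co2 at 2543 FPKM. The remaining genes were Retnla at 2.26 in untreated wild-type replicate 4, Chil4 at 3.28 in IL-4 wild-type replicate 3, Ear2 at 23.8 in untreated K223R replicate 3, Axl at 13.9 in IL-4 wild-type replicate 3, Ccdc86 at 6.74 in untreated K223R replicate 4, Pdia4 at 37.4 in untreated K223R replicate 3, Gclc at 13.5 in untreated wild-type replicate 2, Oas3 at 5.94 in IL-4 K223R replicate 1, Nolc1 at 9.28 in untreated wild-type replicate 2, Dkc1 at 2.49 in IL-4 K223R replicate 1 and Fgr at 1.79 in IL-4 wild-type replicate 2, all in FPKM. IL-4 K223R replicate 3 was at 28.6 on the first component, untreated wild-type replicate 1 had a median correlation of 0.985, and the values of untreated wild-type replicate 2 summed to 305883 FPKM.

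The other results picked out are the genes named here whose IL-4 response differed between the genotypes by the test of the interaction. The interaction (log2) was positive for Chil4 2.27, Fn1 2.20, Ear2 1.57, Chil3 1.38, Klf2 1.36, Ccl24 1.30, Mgl2 1.15, Ephx1 1.01, Usp18 0.87, Hist1h1c 0.85, Herpud1 0.82, Ccl9 0.75, Src 0.57, Sdf2l1 0.56, Got1 0.53, Pdia4 0.51, Il3ra 0.49, Timp2 0.48 and Glb1 0.44. It was at or below -0.8 for Fabp7 -1.61, Plau -1.21, Mapk1ip1 -1.19, Slc7a8 -1.07, St3gal5 -1.07, Id2 -1.06, Fgr -1.01, Havcr2 -0.97, Ccl4 -0.97, Lrrc27 -0.97, Ccl2 -0.95, Tgm2 -0.92, Hilpda -0.82, Axl -0.81 and Irf7 -0.80. It lay between -0.8 and -0.5 for Fzd7 -0.79, Ccdc86 -0.78, Hpgds -0.77, Gpr183 -0.74, Oas3 -0.73, Dkc1 -0.72, Fcgr1 -0.70, Gnl3 -0.63, Il13ra1 -0.63, Serpinb9 -0.62, Gclc -0.59, Plk3 -0.59, Sparc -0.52 and Nolc1 -0.51. It was nearer 0 for Elmo1 -0.48, Taldo1 -0.48, Slc2a1 -0.45, Grwd1 -0.45, Nop58 -0.45, Nhp2 -0.45, Nop56 -0.44, Pfkl -0.44, Tmem206 -0.44, Lpl -0.44, Abhd5 -0.43, P4ha1 -0.39, Ddx21 -0.36 and Emilin2 -0.36.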

How the results depend on the processing

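Under the 26 alternatives, 1657 of 1862 values of named genes kept their direction and their side of the threshold, 190 lost the call, 10 gained it and 5 changed sign. The 5 are genes with no call: Arg1, at -0.039 without untreated wild-type replicate 4 (up to 0.476 without any other library), and Mrc1, at -0.015 without untreated K223R replicate 1, -0.039 without untreated wild-type replicate 2, -0.022 without untreated wild-type replicate 4 and -0.027 without IL-4 wild-type replicate 3 (up to 0.181 without any other). Median-ratio scaling gave 132 positive interactions, 81 amplified rises, 47 positive and 39 negative ones called in K223R cells alone, 2 damped and 8 reversed genes. Quantile normalization gave 44 positive ones called in K223R cells alone. Library weights gave 188 positive and 277 negative interactions, 109 amplified rises and 89 falls, 67 and 142 called in K223R cells alone, 34 in wild type alone, 8 damped genes and 4 untreated genotype differences. The replicate numbers were not taken to pair the libraries: correlations of deviations from the group means were 0.286, 0.122, 0.10 and 0.116 for same-numbered wild-type libraries and 0.0524, 0.0830, 0.127 and -0.0452 for K223R libraries. In both genotypes each untreated library correlated best with the IL-4 library of its own number, except untreated K223R replicate 4. That library correlated best with IL-4 replicate 2, at 0.155. For untreated K223R replicate 1 the margin was small, at 0.0524 against 0.0492 with IL-4 replicate 3. Pairing by number is therefore possible, and the labels do not state it. A replicate block gave 130 positive and 196 negative interactions, 82 amplified rises and 91 falls. It called 5 of 9 MHC class II genes higher and did not call Pdia4 (adjusted p = 0.0846), Herpud1 (0.0873), Ccl2 (0.0548) or Grwd1 (0.0730). As a random effect (block correlation 0.1523) it gave 137 and 264, 83 and 95, 45 positive and 114 negative ones in K223R cells alone, 31 in wild type alone, 8 damped and 25 reversed genes. The causes of these shifts were not tested.

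Leaving out 1 library gave 40 to 137 positive and 67 to 207 negative interactions, 30 to 85 amplified rises and 23 to 67 falls. It gave 10 to 46 positive and 32 to 102 negative ones in K223R cells alone, 5 to 20 in wild type alone, 0 to 6 damped and 6 to 19 reversed genes. IL-4 changed 2189 to 2995 genes in wild type and 3651 to 4214 in K223R cells, and 4398 to 4858 on average. Genotype differences numbered 0 to 2 untreated and 1201 to 1573 with IL-4. The number of libraries and the unknown depth limit the precision.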

Other observations

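Some further genes of ribosome assembly in the nucleolus had negative interactions beside Nhp2, Ccdc86 and Grwd1. They were chosen after their values were seen, so they are a description with no test of the group. How many other genes of this kind were tested, and in which direction they lay, was not counted. Of all tested genes 1.36% had a called negative interaction. Dkc1, the pseudouridine synthase that works with Nhp2, had 4.24, 3, 3.93 and 4.28 FPKM in IL-4 wild-type and 2.49, 2.03, 2.06 and 2.02 in IL-4 K223R libraries (interaction -0.72, SE 0.115, adjusted p = 0.00559). Gnl3, the nucleolar GTPase nucleostemin, had 5.62, 4.91, 5.29 and 4.05 against 2.77, 2.82, 3.06 and 2.90 FPKM (-0.63, SE 0.101, adjusted p = 0.00559). For both genes the IL-4 K223R libraries were the lowest of the 16. Nolc1 (-0.51, adjusted p = 0.0185), Nop58 (-0.45, adjusted p = 0.00559), Nop56 (-0.44, adjusted p = 0.0124) and the RNA helicase Ddx21 (-0.36, adjusted p = 0.0123) were also called. All 6 stayed called whichever library was left out. Grwd1 (-0.45, adjusted p = 0.0225) lost its call without IL-4 K223R replicate 3 (adjusted p = 0.0518), under median-ratio scaling (0.0554) and under quantile normalization (0.0644), among other settings.

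A pair of tyrosine kinase genes moved in different directions. Fgr had 2.20, 1.79, 2.15 and 2.13 FPKM in IL-4 wild-type and 0.904, 0.504, 1.21 and 0.930 in IL-4 K223R libraries (interaction -1.01, SE 0.149, adjusted p = 0.00436). Src had 3.98, 3.48, 2.80 and 3.52 against 6.41, 6.92, 6.90 and 6.05 FPKM (0.57, SE 0.121, adjusted p = 0.0254). The IL-4 groups overlapped for neither gene. The call of Src ended without IL-4 K223R replicate 3 or untreated wild-type replicate 1 (adjusted p up to 0.0551). Fgr was chosen after its values were seen.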
